A study of Mus musculus with 4 samples.

Results

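Methylation was compared between WT and Naa10-KO mouse embryonic stem (ES) cells in 7 control regions of imprinted genes that carry methylation on the maternal chromosome: those of Plagl1, Grb10, Zrsr1, Peg13, Slc38a4, Airn and Impact. Each region was given by fixed bounds in the mouse build mm9, and its members were the CpG cytosines inside the bounds that were read at least 5 times in every library. Of 2468166 such cytosines in the whole data set, 525 lay in the 7 regions. They were unevenly spread, with 147 in Grb10, 135 in Zrsr1, 90 in Plagl1, 55 in Peg13, 52 in Impact, 34 in Airn and 12 in Slc38a4.

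The data are reduced representation bisulfite sequencing (RRBS), which cuts DNA with MspI at CCGG, keeps short fragments and reads each CpG cytosine as methylated or unmethylated, so that the CpG-rich part of the genome is covered. There were 2 libraries of WT ES cells and 2 of ES cells knocked out for Naa10, the X-linked gene of the catalytic subunit of an N-terminal acetyltransferase complex. By the title of the series, the question is what Naa10 does in DNA methylation and in imprinting. All cells were grown in N2B27 medium with the Mek inhibitor PD325901, the Gsk3 inhibitor Chir99021 and LIF on irradiated feeder fibroblasts, and then for 5 passages without feeders before the DNA was taken. Medium with both inhibitors is itself known to reduce CpG methylation, and WT and KO cells shared it. The labels do not give the strain or sex of the cells, the Naa10 allele, or whether replicates are separate clones or cultures. The p-values below therefore reflect how far these 4 libraries scatter, and that scatter may be technical. The Naa10 locus could not be used to check the labels, because its promoter could not be placed on the listed positions.

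Genomic imprinting means that a gene is expressed from 1 parental chromosome only. The choice is set by a control region whose CpGs are methylated in 1 parental germ line and stay so on that chromosome through the life of the embryo, while the other parental copy stays unmethylated. A pure population with intact imprints therefore reads such a region at an intermediate level. Upkeep through cell division needs the maintenance enzyme Dnmt1, and in ES cells it also needs the zinc finger protein Zfp57, which binds the methylated form of the element TGCCGC and recruits Trim28. In the regions described here, methylation on the maternal copy goes with expression from the paternal copy of the gene at that promoter.

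The promoters of Plagl1 and Zrsr1 lie inside their control regions and are printed because the methylation readings below fall directly on their CpGs. The main promoter of Grb10 lies outside its control region and is printed as an unmethylated CpG-rich contrast from the same gene. Sequences are those of RefSeq for GRCm38.p6, 250 bases before to 50 after the annotated start, with every CpG in capitals and the rest in lower case.
Plagl1: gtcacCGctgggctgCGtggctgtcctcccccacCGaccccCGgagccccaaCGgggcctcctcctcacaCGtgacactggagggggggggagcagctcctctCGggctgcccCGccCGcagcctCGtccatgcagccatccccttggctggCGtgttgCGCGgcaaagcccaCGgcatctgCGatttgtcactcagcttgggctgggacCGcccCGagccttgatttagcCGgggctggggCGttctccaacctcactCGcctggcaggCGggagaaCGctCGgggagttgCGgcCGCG
Zrsr1: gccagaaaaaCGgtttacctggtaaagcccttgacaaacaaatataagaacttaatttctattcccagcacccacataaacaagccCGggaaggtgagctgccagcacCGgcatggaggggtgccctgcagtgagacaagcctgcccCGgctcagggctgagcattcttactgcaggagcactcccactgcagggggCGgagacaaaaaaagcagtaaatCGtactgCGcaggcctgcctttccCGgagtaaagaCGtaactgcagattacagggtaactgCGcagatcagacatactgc
Grb10: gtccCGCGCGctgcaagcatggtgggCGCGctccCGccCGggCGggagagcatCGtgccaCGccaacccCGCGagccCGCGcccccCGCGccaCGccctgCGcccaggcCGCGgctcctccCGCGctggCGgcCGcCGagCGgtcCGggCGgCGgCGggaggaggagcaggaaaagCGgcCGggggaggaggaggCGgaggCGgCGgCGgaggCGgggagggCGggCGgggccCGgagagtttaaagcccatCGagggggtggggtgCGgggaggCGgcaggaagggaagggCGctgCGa
No genome of the build mm9 was used, so each sequence was placed by sliding its CpG pattern along the positions listed in the coverage tables. For Plagl1, 45 of 45 listed cytosines in the window fell on a C or G of a CpG at a single shift, which puts the sequence at chr10:12810388-12810687 of mm9 on the plus strand. Zrsr1 (16 of 17 listed, chr11:22871755-22872054, plus strand) and Grb10 (86 of 86 listed, chr11:11937374-11937673, minus strand) were placed under looser limits chosen after seeing the data. The promoters of Slc38a4 and Airn and another promoter of Grb10 could not be placed. The element TGCCGC, searched on both strands, occurs 1 time in the Plagl1 sequence (as gCGgca), 1 time in the Grb10 sequence and 0 times in that of Zrsr1. Of 32851 RefSeq promoters of the same length, 11.6% hold it.

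In all 7 regions the higher KO library read lower than the lower WT library. The fall of the mean level was between 21.1 and 23.5 percentage points in 5 regions, 11.7 points in Zrsr1 and 2.99 points in Slc38a4, which had little to lose. Of the 7 regions 6, all but Slc38a4, were called lower and 0 were called higher by edgeR's quasi-likelihood test. A call needed a Benjamini-Hochberg adjusted p below 0.05 over all windows and regions of the fit and a difference of at least 10 points. The fall was not particular to these regions: by the same rule 79.9% of 155252 windows of 1 kb across the genome were called lower in KO, and in 90.8% of the windows the 2 KO levels lay under the 2 WT levels. Over all 2468166 cytosines 29.2% of the calls were methylated in either WT library, and 10.5% and 6.96% in the KO libraries. Unweighted means over these cytosines were 33.0% in both WT libraries and 11.4% and 7.69% in KO. With 2 libraries against 2 the exact two-sided permutation test cannot go below 0.333, and it gave 0.333 for each region.

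**Figure D1:**
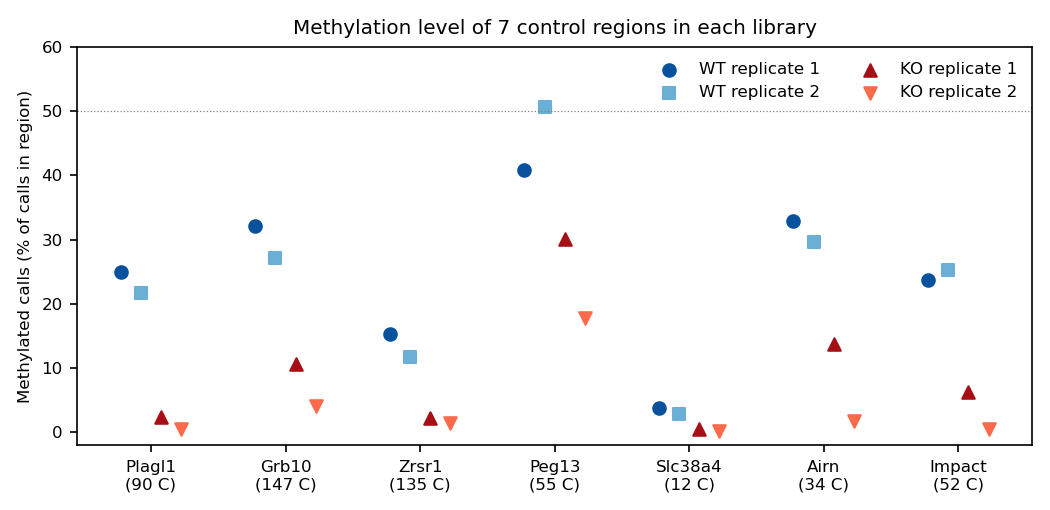
Methylated calls as a percent of all calls in each control region (y axis) for the 7 regions (x axis, with the number of cytosines), 1 symbol per library; the dotted line marks 50%. The KO symbols lie below the WT symbols in every region, the Peg13 region is the highest in each library and the Slc38a4 region lies below 4% in each.

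Plagl1 encodes a zinc finger transcription factor that restrains growth, and its control region overlaps the promoter of Plagl1 and of the non-coding RNA Hymai. The region (chr10:12808500-12812500) read 24.97% and 21.7% in WT and 2.31% and 0.48% in KO. The WT values lay close together and both KO values were near 0. The level was 23.4% ± 2.29 in WT and 1.40% ± 1.30 in KO (SD, n = 2), so that 5.98% of the WT level was left, the smallest share among the 7 regions. The fall of 21.96 points had an adjusted p of 4.34e-24 in edgeR's test and of 6.23e-05 with limma on the logit of the library levels. Of its cytosines 90 of 90 read lower in both KO libraries than in both WT libraries, where 44.6% of all cytosines of the data set did. That 44.6% takes in cytosines of every WT level, unmethylated ones too. KO replicate 1 kept 9.90% of the WT level and KO replicate 2 2.06%. KO replicate 1 had no methylated call at all at 51 of these 90 cytosines and KO replicate 2 at 76, against 0 in either WT library.

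In the Plagl1 promoter printed above, the 41 cytosines with at least 5 calls in every library read 28.0% and 16.6% in WT and 1.71% and 0.46% in KO. The CpG of the TGCCGC element, at bases 162 and 163 of the sequence, was read on both strands. Its C read 33.3% and 18.8% in WT and 5.00% and 0% in KO, from 15 to 20 calls a library. Its partner C on the other strand, under the G of base 163, read 36.4% and 16.0% in WT and 3.45% and 0% in KO. These values lay within the range of the neighbouring CpGs in the plot of the promoter, where methylation in KO was low from end to end.

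**Figure D2:**
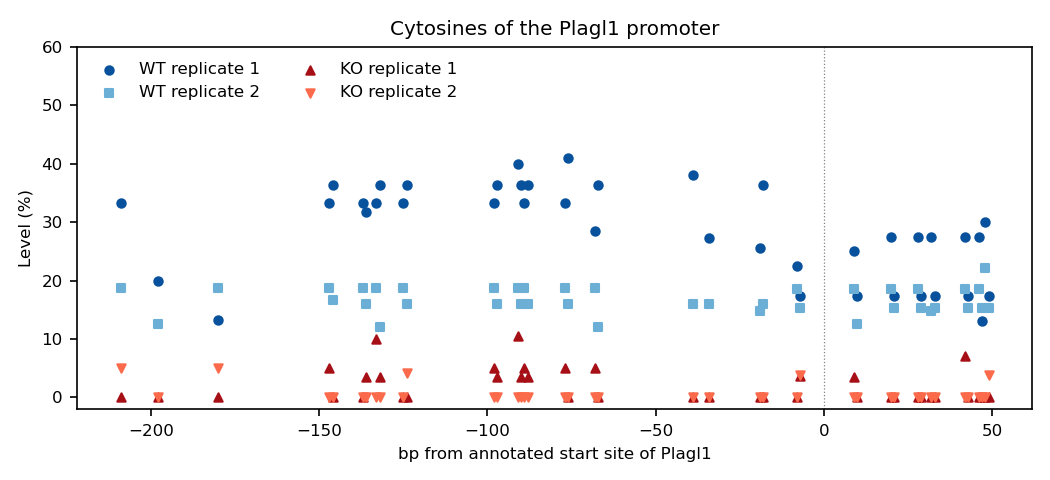
Level of each cytosine (y axis, percent) against its distance from the annotated start site of Plagl1 (x axis, bp; dotted line at the start), 1 symbol per library. WT replicate 1 lies above WT replicate 2 at 26 of 27 cytosines upstream of the start, and the KO libraries lie at 0% to 10.5% throughout.

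Zrsr1 encodes a splicing-factor-like protein; the gene is a retrotransposed copy that lies in an intron of Commd1 and is expressed from the paternal chromosome. Its region (chr11:22870500-22875000) read 15.3% and 11.7% in WT and 2.15% and 1.37% in KO. Both KO libraries were again close together and far below WT. The level fell from 13.5% ± 2.50 to 1.76% ± 0.55 (SD, n = 2; adjusted p = 8.96e-15, edgeR), which left 13.1% of it. Without WT replicate 1 the level fell by 9.96 points, under the minimum of 10, and the call was lost although the adjusted p was 3.41e-06 (7.03e-15 to 3.07e-04 under the other edgeR and limma alternatives). The Zrsr1 promoter itself read 13.8% and 11.2% in WT and 0.60% and 1.08% in KO over 16 cytosines. A promoter annotated for Commd1 that also lies inside the region read 15.0% and 10.7% in WT and 3.94% and 1.82% in KO. The other Commd1 promoter, outside the region, was unmethylated in every library, at 0.19% to 0.51%.

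Grb10 encodes an adaptor protein that dampens insulin and growth factor signalling; its imprinted region serves a downstream promoter, and the main promoter is unmethylated on both chromosomes. The region (chr11:11924500-11927500) read 32.1% and 27.1% in WT and 10.6% and 4.04% in KO. The KO libraries differed from each other more than the WT libraries did, and both were below WT. The level was 29.6% ± 3.55 in WT and 7.34% ± 4.68 in KO (SD, n = 2). This fall of 22.3 points had an adjusted p of 6.54e-11 with edgeR and 0.0026 with limma. It left 24.8%, or 35.96% in KO replicate 1 and 13.6% in KO replicate 2. In contrast, the main promoter printed above read between 0.30% and 0.44% in all 4 libraries over 80 cytosines. The 149 cytosines within 10 kb to the right of the region, which reach into that promoter, read 0.83% and 0.70% in the WT pair and 0.40% and 0.28% in the KO pair.

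Airn is a non-coding RNA made from the paternal chromosome, antisense to the growth factor receptor gene Igf2r, and its transcription silences Igf2r on that chromosome. The region (chr17:12933000-12937000) read 32.9% and 29.6% in WT and 13.8% and 1.74% in KO. The KO libraries stood far apart here, with KO replicate 2 near 0 and KO replicate 1 at less than the level of either WT library. The level was 31.2% ± 2.37 in WT and 7.76% ± 8.51 in KO (SD, n = 2). The fall of 23.5 points was the largest of the 7 (adjusted p = 4.11e-08, edgeR, and 0.0049, limma) and left 24.8% of the WT level. KO replicate 1 kept 44.1% of the WT level, KO replicate 2 only 5.58%. With at least 20 calls required per cytosine, 8 cytosines of 1 read set were left in the region. There KO replicate 1 (25.5%) lay above WT replicate 2 (19.6%), the fall was 15.1 points and the share left was 46.2%.

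Impact encodes a regulator of translation that restrains the kinase Gcn2. Its region (chr18:13129500-13133500) read 23.6% and 25.3% in WT and 6.20% and 0.53% in KO. As in the Airn region, the KO replicates differed by a large factor while the WT replicates lay close together. The level fell from 24.4% ± 1.16 to 3.37% ± 4.01 (SD, n = 2), by 21.1 points, which left 13.8%. The adjusted p was 1.19e-13 with edgeR and 0.0012 with limma. KO replicate 1 kept 25.4% and KO replicate 2 2.19%. KO replicate 2 had no methylated call at 43 of 52 cytosines and KO replicate 1 at 15. In WT this held for 10 cytosines in replicate 2 and for 0 in replicate 1.

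Peg13 is a paternally expressed non-coding RNA whose gene lies inside Trappc9. Its region (chr15:72636000-72643000) was the most methylated of the 7 in each library, at 40.8% and 50.6% in WT and 30.1% and 17.7% in KO. The WT libraries differed more in points here than in any other region, and the WT and KO libraries still did not overlap. The level was 45.7% ± 6.95 in WT and 23.9% ± 8.73 in KO (SD, n = 2), a fall of 21.8 points (adjusted p = 0.0012, edgeR). It left 52.3% of the WT level, more than in any other region. Without WT replicate 2 the fall was 16.9 points and was not called (adjusted p = 0.147, against 4.82e-05 to 0.0415 under the other edgeR and limma alternatives with these bounds). Of its 55 cytosines 34 (61.8%) read lower in both KO libraries than in both WT libraries, against 44.6% over all cytosines. The latter were not matched to the region in WT level, so these shares do not show whether Peg13 fell more often than like sequence.

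Slc38a4 encodes an amino acid transporter. Its region (chr15:96884000-96888500) was covered at 12 cytosines that span 138 bp, and these read 3.83% and 2.79% in WT and 0.43% and 0.21% in KO. The covered stretch was thus almost unmethylated in every library, which does not match the label of a methylated control region, and it stands only for that stretch. The level fell from 3.31% ± 0.74 to 0.32% ± 0.15 (SD, n = 2; adjusted p = 1.12e-04, edgeR), by less than the 10 points that a call needed. The 40 cytosines covered within 10 kb of the region read 32.6% and 33.4% in WT and 6.62% and 4.92% in KO.

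Single cytosines had few reads, and neighbours were often read by the same reads, so their counts are descriptions. In the 7 regions 432 of 525 cytosines (82.3%) had both KO libraries below both WT libraries, and 0 had both above. Across the genome, over cytosines of every WT level, the share below was 44.6%. By region the count was 90 of 90 in Plagl1, 135 of 147 in Grb10, 95 of 135 in Zrsr1, 34 of 55 in Peg13, 11 of 12 in Slc38a4, 27 of 34 in Airn and 40 of 52 in Impact. Of the 13 windows of 1 kb inside the regions, 12 were called lower (the exception was the Slc38a4 window) and in 13 the KO levels lay under the WT levels without overlap, against 79.9% and 90.8% of all windows. The window with the most cytosines in Grb10 (11926001 to 11927000) fell from 33.8% and 29.2% to 11.1% and 4.09%. In Zrsr1 it (85 cytosines, 22872001 to 22873000) fell from 13.7% and 9.72% to 1.96% and 1.04%, in Peg13 (46, 72640001 to 72641000) from 41.7% and 51.8% to 30.4% and 18.1%, and in Airn (18, 12935001 to 12936000) from 34.1% and 36.6% to 9.51% and 2.58%. In Plagl1, Slc38a4 and Impact such a window held 90 of 90, 12 of 12 and 51 of 52 cytosines and repeats the level of the region.

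In WT the regions were ordered Peg13, Airn, Grb10, Impact, Plagl1, Zrsr1 and Slc38a4 by their mean level. Airn and Grb10 overlapped in their WT libraries, and so did Impact and Plagl1, while the other neighbours in this order did not. Except for Peg13, every region read below 35% in both WT libraries, under the 50% of a region fully methylated on 1 chromosome, and Slc38a4 was near 0. In KO the order began with the same 3 regions. WT replicate 1 was above WT replicate 2 in 5 of 7 regions and KO replicate 1 above KO replicate 2 in 7 of 7.

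The share of a library's calls that fell in a region, KO over WT, was 1.05 in Plagl1, 0.91 in Grb10, 0.99 in Zrsr1, 1.04 in Peg13, 1.00 in Slc38a4, 0.93 in Airn and 1.20 in Impact, so no region was missing most of its calls in KO. Totals were 68586396 to 79540412 calls per library, and the median depth of a cytosine in a region was 17 to 47.5 calls. Calls of 1 fragment share their reads, so the number of reads behind a level is much smaller than the number of calls. It was estimated from read sets, which are runs of cytosines whose depth agreed within 1 call in all 4 libraries and which were taken to be read by the same reads. On this count the Airn region rested on 92 to 130 reads per library in 6 read sets, Impact on 149 to 211 in 6, Peg13 on 247 to 273 in 9, Plagl1 on 418 to 514 in 12, Grb10 on 570 to 739 in 20 and Slc38a4 on 72 to 96 in 2. The count was highest in Zrsr1, 919 to 1211 reads in 32 sets, of which 12 held at least 4 cytosines. A depth shift of more than 1 call starts a new set, so the same reads can be counted again. These counts can therefore be too high. In Zrsr1 a set at 22871999 to 22872120 had 69 and 70 reads in WT and 85 and 62 in KO. A lone cytosine within it, at 22872054, was a separate set with 69 and 70 reads in WT and 83 and 62 in KO.

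The level was not even along a region. In Grb10 the run of 500 bp from base 1501 to 2000 of the region was the highest, at 34.7% and 30.3% in WT and 11.4% and 4.62% in KO, and its peak was a read set of 9 cytosines at 11926435 to 11926472. That set read 67.2% and 58.9% in WT, 48.9% in KO replicate 1 and 9.31% in KO replicate 2. A second set of 9 cytosines that overlaps it, at 11926429 to 11926465, read 56.6% and 48.6% in WT but 18.5% and 0.93% in KO. KO replicate 1 was thus below WT in both sets, and closer to it in the first. It had 21 and 12 reads in them, and WT replicate 2 had 12 and 8. The difference between the sets was not tested. In Zrsr1 the run from base 2501 to 3000 read 21.5% and 13.6% in WT and 0% in both KO libraries over 11 cytosines, and the run from 3501 to 4000 kept 4.39% and 4.66%.

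In Airn the cytosines fell into 2 stretches. From base 1001 to 2000 of the region, the first read set (8 cytosines, 12934456 to 12934599) read 36.6% and 19.6% in WT, 25.5% in KO replicate 1 and 0.48% in KO replicate 2. KO replicate 1 thus lay between the WT libraries in this set. The other set of 8 cytosines there, at 12934474 to 12934616 and interleaved with it, read 26.3% and 27.9% in WT and 6.82% and 0% in KO. KO replicate 1 had 25 reads in the first of these sets and 22 in the other. From base 2001 to 2500 the 18 cytosines read 34.1% and 36.6% in WT and 9.51% and 2.58% in KO.

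In Peg13 the most methylated read set, 5 cytosines at 72640214 to 72640251, read 75.9% and 77.4% in WT, 51.8% in KO replicate 1 and 18.8% in KO replicate 2. A neighbouring set of 11 cytosines at 72640310 to 72640451 read 7.14% in WT replicate 1 and 63.6% in WT replicate 2, on 14 and 9 reads. The WT libraries were thus far apart in a set with few reads. The cytosine with the highest mean KO level of the region, at 72640214, read 79.4% and 77.4% in WT, 78.3% in KO replicate 1 and 31.3% in KO replicate 2. A cytosine 20 bp on in the same read set, at 72640234, had the largest fall of the region: it read 73.5% and 77.4% in WT and 39.1% and 6.25% in KO.

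These cytosines were picked among those with at least 20 calls in every library. In 4 other regions the cytosine with the largest fall was nearly cleared in KO. It read 45.9% and 44.0% in WT and 4.35% and 0% in KO in Plagl1 (12810918). In Grb10 (11926849) it read 40.7% and 33.3% in WT and 4.35% and 0% in KO. In Impact (13131664) it read 36.4% and 37.5% in WT and 7.41% and 0% in KO. In Zrsr1 (22872011) it read 30.3% and 34.8% in WT and 0% in both KO libraries. In Airn (12934464) it was not cleared in KO replicate 1, at 24.0% against 40.7% and 22.9% in WT, while KO replicate 2 read 0%. Only 8 of the 34 Airn cytosines had 20 calls in every library, all in the first read set above. A set of 7 outside this choice, at 12935173 to 12935243, fell further, from 41.7% and 50.0% to 5.19% and 2.05%. These zeros of KO replicate 2 rest on 26 to 34 calls, and a count of 0 then allows a level of up to 8.82% to 11.5% (3 calls of the total, counting error only). The cytosine with the highest mean KO level read 36.6% and 44.8% in WT and 23.8% and 14.3% in KO in Grb10 (11926403). In Zrsr1 (22874000) it read 17.9% and 25.9% in WT and 13.2% and 11.5% in KO, so it lost less than the region around it. In Airn (12934521) it read 33.3% and 17.1% in WT, 36% in KO replicate 1 and 0% in KO replicate 2. In Plagl1 (12810891) it read 21.6% and 25.6% in WT and 10.6% and 2.63% in KO, and in Impact (13131936) it read 35% and 13.9% in WT and 14.7% and 0% in KO.

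Of 56 read sets with at least 4 cytosines in the 7 regions, KO replicate 1 was at or above the lower WT library in 10. These were 4 of 12 sets in Zrsr1, 2 of 17 in Grb10, 2 of 7 in Peg13, 1 of 4 in Airn, 1 of 6 in Impact, 0 of 8 in Plagl1 and 0 of 2 in Slc38a4. KO replicate 2 was so in 3 sets, all in Zrsr1 and each with a WT library at 0%. These 3 are among the 4 Zrsr1 sets counted for KO replicate 1, which read 0% in them as well. In the 2 Peg13 sets WT replicate 1 read 7.14% on 14 reads and 20.0% on 5 reads. The Impact set, at 13131728 to 13131859, read 20.0% and 2.38% in WT, on 25 and 7 reads, and 3.24% and 0% in KO. Read sets outside the 7 regions were not counted in this way. The counts thus do not show whether such overlap was more or less frequent here than elsewhere.

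**Figure D3:**
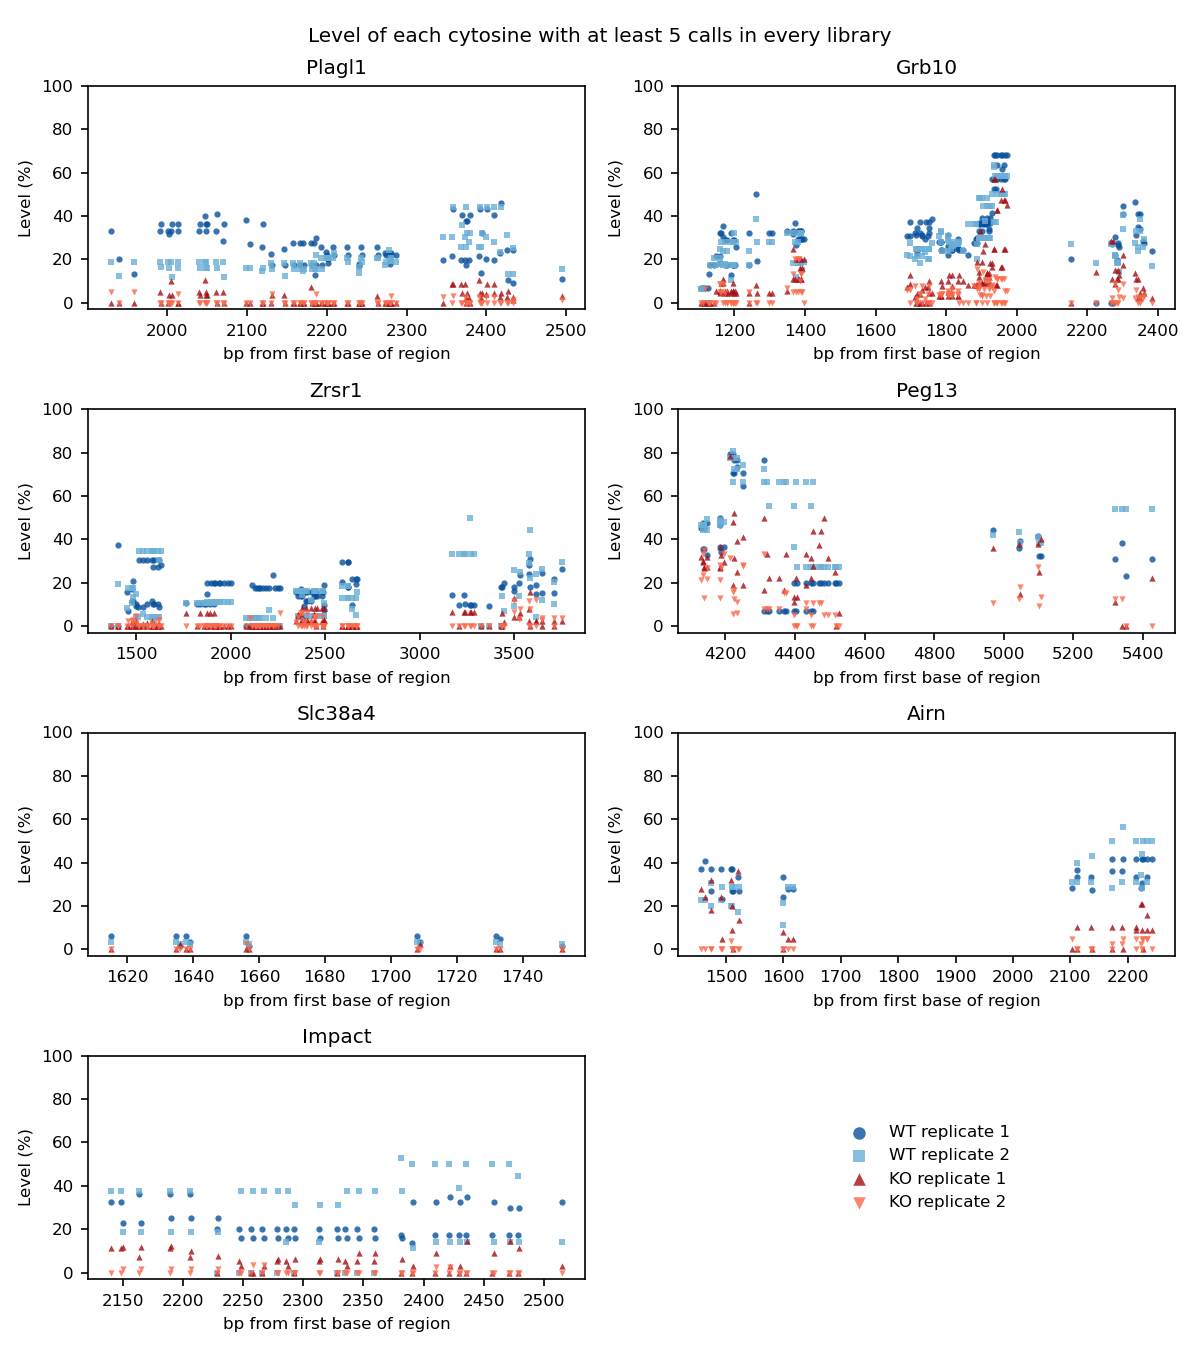
Level of each cytosine (y axis, percent) against its distance from the first base of the region (x axis, bp), 1 panel per region and 1 symbol per library. The KO symbols lie mostly below the WT symbols, with single stretches in 5 regions where KO replicate 1 lies among them.

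To see whether the regions lost more or less than other sequence of like level, 6 of them were set beside CpG-dense windows of 1 kb (at least 20 cytosines) whose level in WT replicate 1 was within 5 points of that of the region. Slc38a4 was left out, because a band of 5 points around its level takes in unmethylated windows. The share left was then read in the other 3 libraries, as the mean KO level in percent of WT replicate 2. Plagl1 kept 6.42%, where its 666 windows had a median of 25.8% (quartiles 17.7% and 35.5%), and 1.35% of them kept less. Peg13 kept 47.2%, where its 498 windows had a median of 24.4% (quartiles 18.0% and 31.8%), and 96.4% of them kept less. Plagl1 and Peg13 thus lay toward opposite ends of their windows of like level. Grb10 (27.1%) and Airn (26.2%) lay near the medians of their windows, 24.8% and 24.7%, although the mean of Airn stands between KO libraries that kept 44.1% and 5.58% of the mean WT level. Zrsr1 (15.0%) and Impact (13.3%) lay below the lower quartiles of theirs, 18.8% and 17.8%, with 15.5% and 12.2% of windows lower still. These positions are descriptions, and no difference between a region and its windows was tested.

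KO replicate 2 lay further below KO replicate 1 in 4 regions than in most windows of like level. In the windows matched to each of these 6 regions the level of KO replicate 2 was at the median 62.2% to 67.3% of that of KO replicate 1. It was 8.62% in Impact, 12.7% in Airn, 20.8% in Plagl1 and 37.9% in Grb10, and 0.27%, 0.19%, 1.65% and 9% of the respective windows had a lower value. In Peg13 (58.9%) and Zrsr1 (63.8%) it was within the quartiles of the windows. The WT libraries differed by 9.83 points in Peg13, more than in 98.0% of its windows. With 1 value per KO library these differences have no replicate check.

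**Figure D4:**
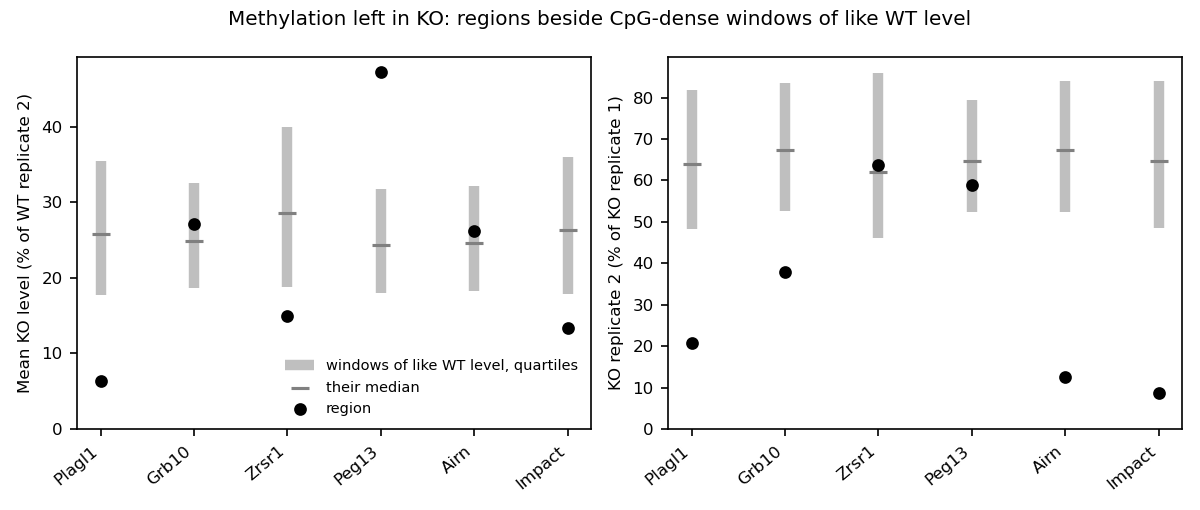
Left, mean KO level in percent of WT replicate 2; right, KO replicate 2 in percent of KO replicate 1. Black points are 6 control regions, and grey bars and ticks are the quartiles and median of CpG-dense windows within 5 points of the region in WT replicate 1; Plagl1, Zrsr1 and Impact lie below their bars and Peg13 above its bar on the left, and Plagl1, Grb10, Airn and Impact lie below theirs on the right.

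The sequence around a region could be compared in few places. Around Peg13, 31 cytosines within 10 kb read 86.4% and 87.6% in WT and 23.8% and 15.0% in KO, so that 22.3% of the WT level was left outside and 52.3% inside. In both KO libraries the region, at 30.1% and 17.7%, was thus above its pooled flank, although it was far below it in WT. The 28 flank cytosines on the left read 23.4% and 14.5% in KO. The 3 on the right read 31.1% and 30.3% in KO, above the region, on 45 and 33 calls. Near Airn, 7 cytosines to the right read 88.3% and 82.0% in WT and 39.8% and 28.7% in KO. To the right of Zrsr1 48 cytosines were unmethylated, at 1.47% and 1.40% in WT and 0.32% and 0.40% in KO. Plagl1 had no covered cytosine within 10 kb of its bounds.

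If methylation sits on whole copies of a region, as on 1 parental chromosome, cytosines read by the same reads should all show the same level, since a read is then methylated throughout or not at all. This was measured along read sets of at least 4 cytosines, 10 reads and a level of 10% to 90%, as the variance of the level along the set over the variance that independent binomial draws would give. The ratio is 0 where each cytosine has the same count and about 1 where each is drawn by itself. It was chosen after seeing the data, and it reads counts per cytosine, not single reads. In the 7 regions its median was 0.07 over 46 sets in WT replicate 1 and 0.08 over 43 sets in WT replicate 2. In CpG-dense sets elsewhere at 10% to 50%, the medians were 2.52 over 10598 sets and 2.34 over 10104 sets. With the regions held to 10% to 50% as well, their medians were 0.07 over 42 sets and 0.08 over 39 sets. Of these, 36 and 33 were under 0.25. Values under 0.25 were found in 39 of 46 and 37 of 43 sets of the regions and in 2.25% and 2.34% of the dense sets elsewhere. In WT, cytosines of a read set in these regions thus shared 1 level more closely than independent draws would.

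In KO fewer sets of the regions still reached 10%, 17 sets of KO replicate 1 and 5 of KO replicate 2. Their medians, 0.38 and 0.52, were higher. Among 14 sets that could be measured in both WT libraries and in KO replicate 1, the ratio was above both WT values in 13. Their medians were 0.069 and 0.086 in WT and 0.300 in KO replicate 1. For KO replicate 2 this held for 5 of 5 sets. These sets came from 4 and 2 regions and share libraries, so they are not independent, and sets that kept at least 10% are those that lost least. The first Airn set above is an example: its 8 cytosines ranged from 33.3% to 40.7% in WT replicate 1 and from 8% to 36% in KO replicate 1. In CpG-dense sets elsewhere at 10% to 50% the KO medians were 2.16 and 2.00, slightly lower than in WT. The set-by-set comparison of KO with WT was not made for sets elsewhere. In the regions, the sets measured had a median level of 29.7% in WT replicate 1 and 19.5% in KO replicate 1. The ratio was not matched for level, so part of its rise may come with the lower level, which was not tested.

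**Figure D5:**
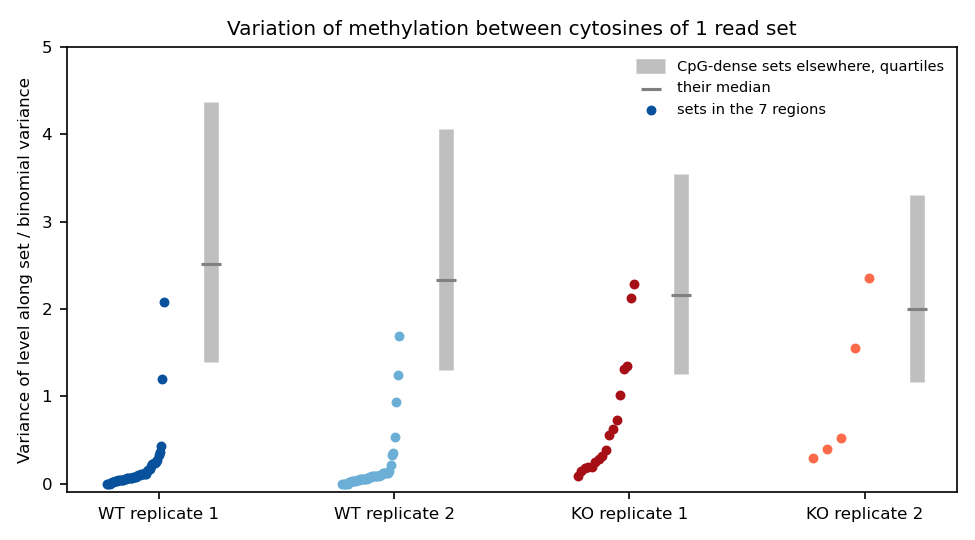
Variance of the level along a read set over the binomial variance (y axis) in each library (x axis). Points are sets inside the 7 regions, and grey bars and ticks are quartiles and median of CpG-dense sets elsewhere; the WT points lie mostly under 0.25 and the KO points, fewer in number, reach higher.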

How the data were processed

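Genomic DNA of 4 ES cell libraries was measured by RRBS. From 50 ng of DNA cut with MspI for 3 hours, per the labels' protocols, fragments of 150 to 500 bp were kept. The authors deposited, for each CpG cytosine, a percent methylated and the counts of methylated and unmethylated calls, not normalised. Per the submitters' processing notes Trim Galore, Bismark 0.10.1 and the build mm9 were used; the handling of duplicates and filled-in ends is not given in the sources used here. Counts were used for all values, and counting errors cover counting only.

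The members and lists were chosen with earlier results of these data known. A region's level is its methylated calls over all its calls. The 7 regions and all 1 kb windows with at least 3 cytosines entered 1 fit of edgeR 4.0.16 (R 4.3.3). Its terms were the library, the methylated state and the interaction of that state with genotype. The fit was also run on simulated data in which few windows changed and the spread was that of the WT pair. In the real data 79.9% of windows were called lower, so the simulation does not show how the fit performs under such a change. Permutation tests went through every split of the 4 libraries into 2 and 2 (Python 3.11.15, numpy 2.4.6). Named were all regions, per region the window with the most cytosines, and the cytosines with the highest mean KO level and the largest fall among those with at least 20 calls. The read sets (gaps of at most 150 bp), the windows matched within 5 points, the thinned sets and the looser placement of promoters (at least 90% of listed cytosines on a CpG, 15 kb searched, instead of 95% and 5 kb) were chosen after seeing the data. Gene overlaps were read from RefSeq for GRCm38.p6. Alternatives were other coverage minimums, bounds, window sizes, minimum differences and tests, each library left out, and the replicate number as a block.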

Additional observations from a re-analysis of the deposited data

How the results depend on the processing

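The KO mean stayed below the WT mean in every region under every alternative run, and 0 regions or windows inside them were called higher. A minimum difference of 25 points ended the calls of Plagl1 (-21.96), Grb10 (-22.27), Zrsr1 (-11.73), Peg13 (-21.82), Airn (-23.49) and Impact (-21.08), which left 0 regions and 1 window called lower. With no minimum, Slc38a4 (-2.99) was called. Leaving out 1 library gave differences of -23.6 to -20.3 points in Plagl1, -25.6 to -18.96 in Grb10, -13.5 to -9.96 in Zrsr1, -28.0 to -15.6 in Peg13, -3.51 to -2.47 in Slc38a4, -29.5 to -17.5 in Airn and -23.9 to -18.2 in Impact. Then 5 regions were called lower without either WT library and 6 without either KO library, and 9 to 12 windows inside the regions. The lone library of a genotype is there assumed to vary like the other pair. KO as a percent of WT in Slc38a4 was 14.4 with bounds 500 bp further out (14 cytosines) and 0 with 1 cytosine per 100 bp (2 cytosines). With 500 bp added, the fall in Peg13 was 30.3 points. At 20 calls Airn kept 8 cytosines, a fall of 15.1 points and 46.2% of the WT level. The share of cytosines with KO below WT was 87.8% at 10 calls, 87.7% at 20 calls and 82.3% to 92.0% with 1 library left out. The replicate numbers did not pair the libraries: over 123505 windows the deviations of same-numbered libraries from their group means correlated at -0.0046. With the replicate block 6 regions and 12 windows inside them were still called lower. Read sets built with a depth tolerance of 0 or 2 calls gave medians of the variation ratio of 0.08 and 0.09 in WT replicate 1 and 0.56 and 0.38 in KO replicate 1. Depth limits single cytosines, and the 12 cytosines of Slc38a4 come from 2 read sets.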

Other observations

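The 2 cytosines of a CpG, 1 on each strand, are read from different fragment ends and so give partly separate readings. Over 47 CpGs of Plagl1 read on both strands, the strands differed on average by 10.1 and 6.11 points in WT and by 2.11 and 0.70 points in KO. Over 78 CpGs of Grb10 they differed by 6.69 and 8.83 points in WT and by 9.72 and 5.19 points in KO, where the level itself was much lower. Over 25 CpGs of Impact they differed by 8.87 points in WT replicate 1 and by 30.0 points in WT replicate 2, against 4.82 and 0.80 points in KO. In that region a read set of 9 cytosines on one strand read 48.4% in WT replicate 2 on 18 reads, and the set of 9 cytosines on the other strand read 13.6% on 36 reads. The agreement of the whole-region WT levels of Impact, 23.6% and 25.3%, thus rests on sums over sets that were far apart in WT replicate 2.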
